A study of Zea mays with 12 samples.

Results

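Transcript levels of 3 ribosomal protein genes of maize, rps6-2 (LOC542640), rps27 (LOC542617) and RPL10 (LOC542298), were followed in seedling leaves of 2 inbred lines. In all samples the seeds had germinated for 2 days before the seedlings spent 3 days in soil. The genes are 3 of 1108 genes that the platform annotation names, were found by symbol or synonym, and are reported by 4 probe sets of the 17621 tested on an Affymetrix GeneChip Maize Genome Array, a 1-colour array on which a group of short probes reports each transcript. A probe set is a measurement of its own, rps6-2 and rps27 have 1 each and RPL10 has 2. The genes were singled out because of their values on these same arrays, so that their differences between groups are given as descriptions, with their standard errors and without a test.

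The 4 groups of 3 arrays were the tolerant line Cat100-6 in acid soil, the same line in control soil, the sensitive line S1587-17 in acid soil and that line in control soil (tolerance to aluminium, per the labels). Germinated seedlings spent 3 days in bags of an aluminium-containing red soil at pH 4.1, or of the same soil brought to pH 5.5 with lime, in which aluminium could not be detected. Both soils were fertilized alike, and the acid soil also received calcium chloride to make up for the lime. The number of seeds per bag, the temperature and the hours of light and dark were the same for all samples. The labels call the samples biological replicates without saying whether those of a group came from separate bags, so that a p-value here reflects how much these arrays vary, which may be technical, and each line stands for its tolerance class alone.

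A ribosome consists of a small subunit, which reads the messenger RNA, and a large subunit, which joins the amino acids. Its proteins are made in matching amounts, and their transcripts are abundant in growing tissue such as the base of a young leaf. RPS6 is a small subunit protein that is phosphorylated by S6 kinase, an enzyme activated by the TOR growth-control kinase. RPS27 is a small subunit protein with a zinc finger, and RPL10 is a large subunit protein that lies close to the site where the peptide bond forms and that, in yeast, joins the subunit at a late step of its assembly. Values below are levels on the log2 RMA scale, and differences are log2 differences. In whole leaves, fewer cells of a type and less RNA per cell cannot be told apart.

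One array stood apart. Replicate 3 of S1587-17 in control soil had a correlation across probe sets of 0.967 with replicate 1 and of 0.963 with replicate 2 of that group, whereas within the other groups the correlations lay between 0.985 and 0.997. Differences of the members and the main results of the other ribosomal protein genes that rest on it are given with and without it. The mean of 9 spiked hybridization controls was 9.71 ± 0.31 in acid soil and 10.21 ± 0.21 in control soil in Cat100-6, and 10.17 ± 0.01 and 10.26 ± 0.05 in S1587-17 (SD, n = 3). The 3′ minus 5′ difference over 4 control genes lay between 0.48 and 0.63 on the Cat100-6 arrays and between -0.06 and 0.24 on those of S1587-17. Of the leaf transcripts, the light-harvesting gene cab-m7 lay between 14.02 and 14.09 on all arrays and the small subunit gene of Rubisco, ssu1, between 12.49 and 13.12. Other leaf markers were less even. The lowest bundle sheath difference between soils in Cat100-6 was -1.67. The lowest mesophyll difference between lines (Cat100-6 minus S1587-17) was that of lhcb5-2, -5.21 in acid and -4.82 in control soil. The median of the mesophyll probe sets was -0.03 in acid and 0.27 in control soil. Whether the probes match both lines equally was not checked, here or for the members. Of the root marker names sought only zrp4 was found, and it fell in Cat100-6 in acid soil (-1.81 ± 0.21 (SE), adjusted p = 0.000151, limma with Benjamini-Hochberg adjustment). Its mean level was 7.78 in Cat100-6 in control soil and 5.97 in acid soil, and 5.68 in both soils of S1587-17. Its relation to the members was not tested. Descriptions in the labels say root leaves, which was read here as leaves.

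In Cat100-6 all 4 member probe sets were higher in acid than in control soil on every array, by between 0.66 and 1.59 log2 units. For rps6-2 the 3 acid soil arrays of Cat100-6 held 12.36, 12.68 and 12.16, against 10.74, 10.88 and 10.81 in control soil. The lowest acid soil array was thus more than a log2 unit above the highest control array. The difference was 1.59 ± 0.19 (SE, n = 3 per group), a 3.01-fold higher level, and 4.77% of all probe sets had a larger one. For rps27 the values were 12.82, 13.09 and 12.71 in acid soil and 11.64, 11.63 and 11.67 in control soil. Here the control arrays were nearly identical (SD 0.02) and the spread lay in the acid soil group (SD 0.20). Its difference was 1.23 ± 0.16, a 2.34-fold higher level.

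RPL10 differed less. Its probe set with the suffix _a_at held 12.95, 13.11 and 12.69 in Cat100-6 in acid soil and 12.34, 12.31 and 12.11 in control soil, a difference of 0.66 ± 0.12 (1.58-fold). The second RPL10 probe set, with the suffix _at, held 12.18, 12.56 and 12.05 in acid soil and 11.54, 11.62 and 11.42 in control soil, a difference of 0.74 ± 0.19 (1.67-fold). The acid and control arrays did not overlap at any of the 4 probe sets, as was the case, with acid soil higher, for 27.9% of all probe sets. That contrast served to choose rps6-2, so the count is a description. The suffix _a_at marks probes that can report several transcripts of a gene, and both RPL10 probe sets gave nearly the same response to soil in this line.

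**Figure D1:**
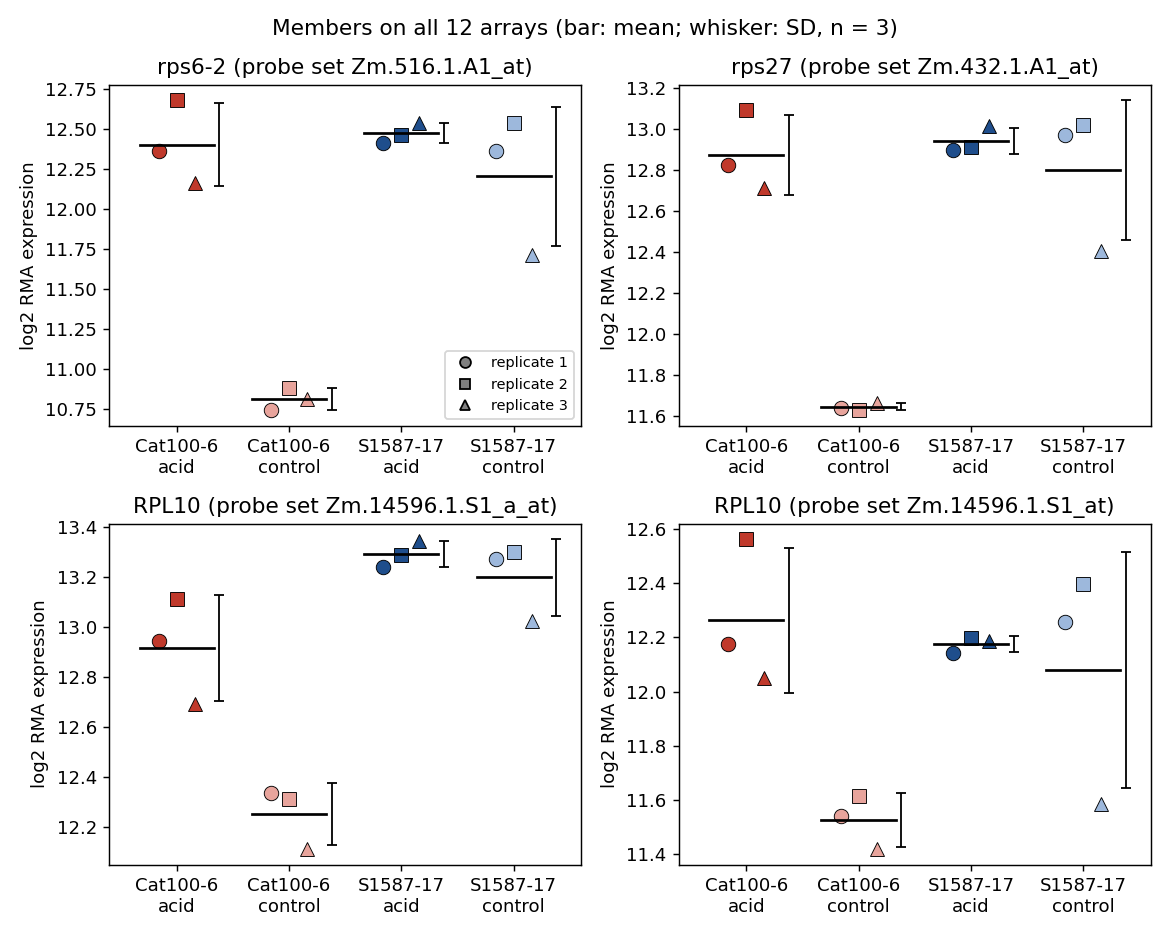
Level of the 4 member probe sets (log2 RMA expression, vertical axis, a range of its own in each panel) on each of the 12 arrays by line and soil. Marker shapes give the replicate number, the bar is the group mean and the whisker the SD (n = 3). The Cat100-6 control arrays lie lowest in every panel, apart from S1587-17 control replicate 3 at the second RPL10 probe set (11.58, against 11.62 on the highest Cat100-6 control array).

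Within the acid soil group of Cat100-6, replicate 2 held the highest and replicate 3 the lowest value at all 4 probe sets. The same replicate 2 had the highest mean over 14 probe sets of dividing-cell genes, 7.97, against 7.47 and 7.51 on the other acid soil arrays of this line. It also had the lowest mean of the hybridization controls, 9.38 against 9.98 and 9.78. The part of either in the spread of the members was not tested.

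In S1587-17 the members differed between acid and control soil by 0.09 to 0.27, with overlapping arrays and intervals that include 0. All 12 arrays entered the choice of the members, so these differences are not tested either. For rps6-2 the arrays held 12.41, 12.46 and 12.54 in acid soil and 12.36, 12.54 and 11.71 in control soil. The groups overlapped, with control replicate 3 far below the rest. The difference was 0.27 ± 0.19, with a 95% interval of -0.15 to 0.69, and 0.02 ± 0.14 without that array. For rps27 the values were 12.90, 12.91 and 13.01 in acid soil, against 12.97, 13.02 and 12.41 in control soil. Its difference was 0.14 ± 0.16 (95% interval -0.20 to 0.48), and -0.05 without control replicate 3.

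RPL10 in S1587-17 held 13.24, 13.29 and 13.35 in acid soil and 13.28, 13.30 and 13.02 in control soil at the _a_at probe set, a difference of 0.09 ± 0.12 (95% interval -0.18 to 0.36). At the _at probe set it held 12.14, 12.20 and 12.18 in acid soil and 12.26, 12.40 and 11.58 in control soil, a difference of 0.10 ± 0.19 (95% interval -0.33 to 0.52). Without control replicate 3 these differences were 0.00 and -0.15. Control replicate 3 was the lowest of the 6 S1587-17 arrays at all 4 member probe sets. On that array the dividing-cell genes averaged 5.61, against 6.98 and 7.09 on the other control arrays of the line, and the 3 bundle sheath genes 12.77, against 11.69 and 12.06. Their part in the low values of the members was not tested. Over all probe sets no call was made for the soil response of this line (0% higher and 0% lower in limma), and 613 probe sets had an unadjusted p under 0.05.

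Ordered by group mean, rps6-2 and rps27 had the same sequence, from S1587-17 in acid soil (12.47 ± 0.06 and 12.94 ± 0.06) over Cat100-6 in acid soil (12.40 ± 0.26 and 12.88 ± 0.20) and S1587-17 in control soil (12.20 ± 0.44 and 12.80 ± 0.34) down to Cat100-6 in control soil (10.81 ± 0.07 and 11.65 ± 0.02). The upper 3 groups overlapped with their neighbours, and the control soil group of Cat100-6 lay below them with a gap of 1.39 for rps6-2 and 1.15 for rps27. RPL10 at the _a_at probe set was ordered differently, with S1587-17 in acid (13.29 ± 0.05) and control soil (13.20 ± 0.15) above Cat100-6 in acid soil (12.92 ± 0.21), and Cat100-6 in control soil last (12.25 ± 0.12). Its only neighbours without overlap were the 2 soils of Cat100-6. At the _at probe set Cat100-6 in acid soil came first (12.26 ± 0.27), ahead of S1587-17 in acid (12.17 ± 0.03) and control soil (12.08 ± 0.43), and Cat100-6 in control soil was last (11.53 ± 0.10), with all neighbours overlapping.

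In control soil the members were lower in Cat100-6 than in S1587-17. There, Cat100-6 minus S1587-17 was -1.39 ± 0.19 for rps6-2, a 2.63-fold lower level in Cat100-6, and -1.15 ± 0.16 for rps27, a 2.22-fold lower level. RPL10 differed by -0.95 ± 0.12 at the _a_at probe set and by -0.55 ± 0.19 at the _at probe set. The 3 arrays of each line did not overlap at the first 3 of these probe sets and overlapped at the last, where S1587-17 control replicate 3 reached the level of Cat100-6. Over all probe sets the arrays lay apart with Cat100-6 lower at 23.9%. Without that replicate the 4 differences were -1.64, -1.35, -1.03 and -0.80.

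In acid soil the lines lay close together at 3 of the 4 probe sets. The difference, Cat100-6 minus S1587-17, was -0.07 ± 0.19 for rps6-2, -0.07 ± 0.16 for rps27 and 0.09 ± 0.19 for RPL10 at the _at probe set, each with overlapping arrays. RPL10 at the _a_at probe set was lower in Cat100-6 by -0.37 ± 0.12 with arrays that did not overlap, which was also found, with Cat100-6 lower, at 22.8% of all probe sets. The 2 probe sets of this gene thus disagreed on the line difference in acid soil, and both line differences were contrasts in which RPL10 was among the 2 ribosomal protein genes of lowest p. The directions in acid soil depended on the scale: with each array scaled by its hybridization controls, they became 0.38 for rps6-2, 0.39 for rps27, 0.54 for RPL10 at the _at probe set and 0.08 at the _a_at probe set, where the median of all probe sets was 0.43 on that scale.

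The response to soil, set beside each other for the lines, was 1.59 in Cat100-6 and 0.27 in S1587-17 for rps6-2, a difference of 1.32 ± 0.27. For rps27 the responses were 1.23 and 0.14, a difference of 1.09 ± 0.22. For RPL10 they were 0.66 and 0.09 (difference 0.57 ± 0.18) at the _a_at probe set and 0.74 and 0.10 (difference 0.64 ± 0.27) at the _at probe set. Without S1587-17 control replicate 3 these differences were 1.57, 1.28, 0.66 and 0.89. They use the arrays with which the members were chosen, and no test is given.

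The other ribosomal protein genes on the array, 25 probe sets found by their symbols, were taken as a list for comparison. Together with the members it counts 29 probe sets of 20 genes, grouped as small subunit, large subunit, the acidic P proteins that form the stalk to which translation factors bind, and 1 plastid protein. In Cat100-6, 17 of the 25 rose in acid soil and 1 fell (limma, adjusted p under 0.05), where 23.5% of all probe sets rose and 31.5% fell. Their median difference was 1.09, against -0.14 over all probe sets. With the arrays set to the hybridization controls, 37.4% of all probe sets rose and 5.96% fell, the median of all probe sets was 0.36 and that of the 25 was 1.59, and 21 of the 25 rose and 0 fell.

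Among the small subunit genes other than the members, 5 of 7 probe sets rose in Cat100-6 and 2 did not pass. The close relative of rps6-2, rps6-1, rose at all 4 of its probe sets, by 1.46 ± 0.26 at one (adjusted p = 0.00107), 1.09 ± 0.16 at another (adjusted p = 0.000518), and by 0.82 and 0.81 at the other pair. Probes of these 2 genes may report each other's transcripts, which was not checked here. The gene rps13 rose by 0.81 ± 0.18. RPS21 (0.63 ± 0.26, adjusted p = 0.0597) and RPS10 (0.10 ± 0.11, adjusted p = 0.441) did not pass. On the scale of the hybridization controls both did, with 1.13 ± 0.32 (adjusted p = 0.00953) for RPS21 and 0.60 ± 0.21 (adjusted p = 0.0304) for RPS10.

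Large subunit genes other than RPL10 rose at 5 of 6 probe sets. RPL19 rose by 1.64 ± 0.21 (adjusted p = 0.000248), and rpl30 by 1.37 ± 0.38, rpl39 by 1.12 and 1.19 at its 2 probe sets, and RPL27A by 1.14 ± 0.21. The probe set of rpl29 differed by -0.14 ± 0.09 and did not pass (adjusted p = 0.226). RPL10 thus had the smallest differences among the large subunit probe sets other than rpl29.

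Of the P proteins 7 of 11 probe sets rose and 1 fell. The largest difference of all 29 probe sets was that of rpp2a-3, 1.89 ± 0.22 (adjusted p = 0.000145), followed by rpp2a-2 with 1.72 ± 0.27. The gene rpp2a-4 rose by 1.13 ± 0.18. In contrast rpp2b fell, by 0.48 ± 0.14 (adjusted p = 0.0143), a call that was lost without Cat100-6 acid soil replicate 2 and on the scale of the hybridization controls, where it differed by 0.02 ± 0.20 (adjusted p = 0.938). Probe sets of 1 gene disagreed here. RP-P0, the protein at the base of the stalk, rose by 1.27 ± 0.22 at one probe set and differed by 0.09 ± 0.11 at the other, and rpp1a rose by 1.10 ± 0.19 at one and differed by 0.24 ± 0.14 at its other probe set. On the scale of the hybridization controls these other probe sets passed as well, with 0.59 ± 0.20 for RP-P0 and 0.74 ± 0.23 for rpp1a (limma, adjusted p = 0.0260 and 0.0166). The median of all probe sets was 0.36 on that scale. Likewise rpp3 rose by 1.20 and 1.09 at 2 probe sets and differed by -0.09 at the third. The probe sets of RP-P0, rpp1a and rpp3 that did not rise as deposited were dim. In Cat100-6 in acid soil they averaged 4.60, 5.58 and 4.43. Those that rose averaged 11.61 for RP-P0, 11.76 for rpp1a, and 11.96 and 12.91 for rpp3. Whether the dim probe sets report their transcripts was not tested. The plastid gene prpl35-1 differed by -0.26 ± 0.12 and did not pass (adjusted p = 0.0823).

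**Figure D2:**
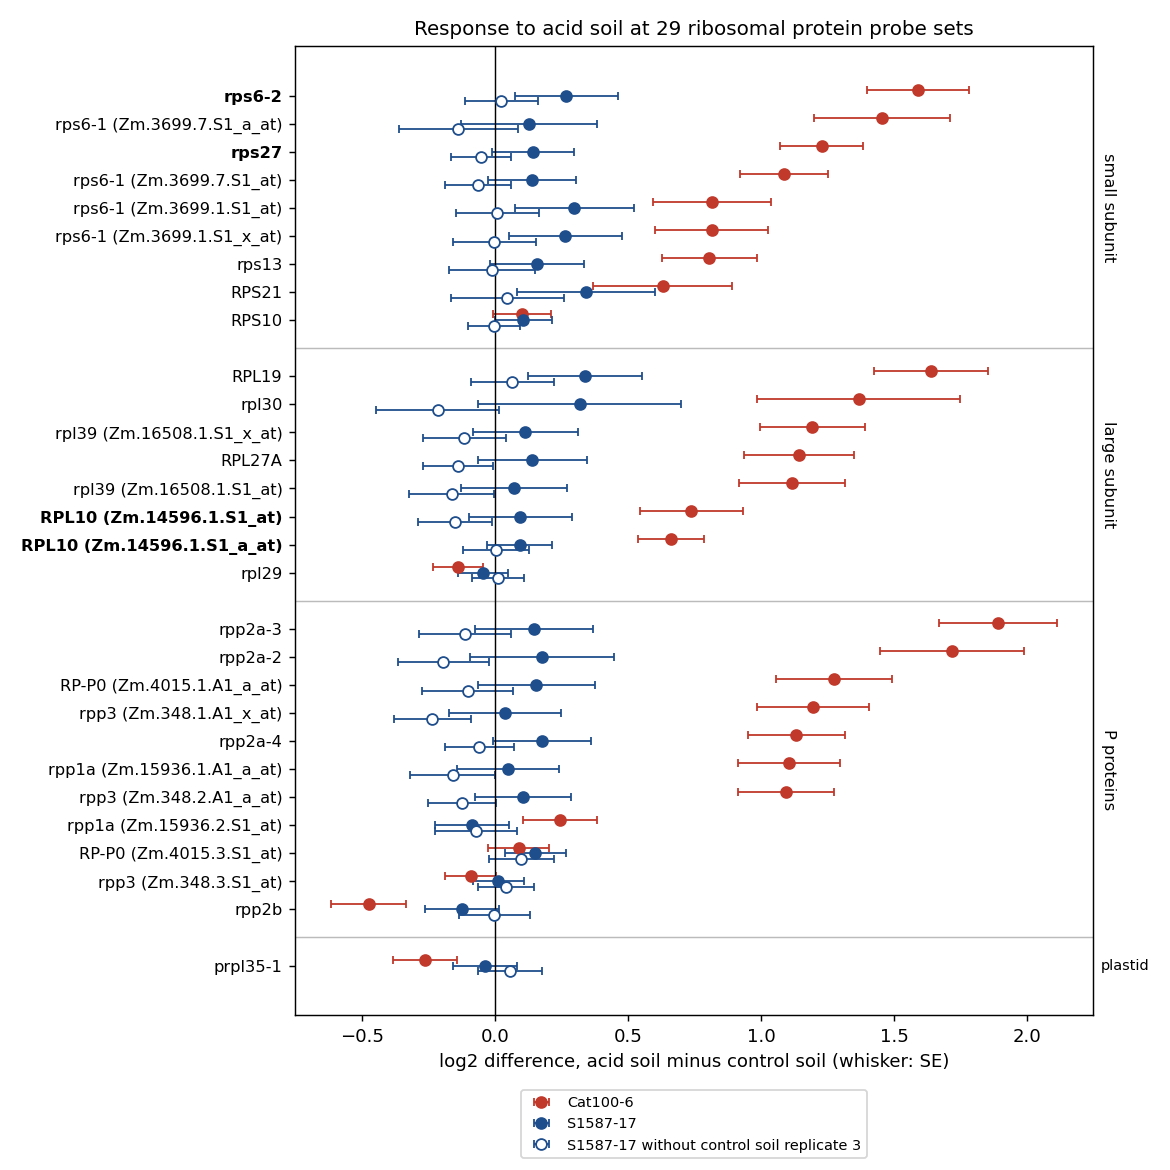
Difference between acid and control soil (log2, horizontal axis, whisker: SE) at the 29 ribosomal protein probe sets, grouped by role and ordered within each group by the value in Cat100-6, with the members in bold. Filled red points are Cat100-6, filled blue points S1587-17 and open points S1587-17 without control replicate 3. Most Cat100-6 values lie near 1, rps6-2 heads the small subunit with 1.59, and the filled S1587-17 points lie between -0.12 and 0.34. Open points reach down to -0.24, at a probe set of rpp3.

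In S1587-17 none of the 25 passed for the soil response in limma, and 0 of them had an unadjusted p under 0.05. Their differences lay between -0.12 and 0.34, with a median of 0.14, against -0.02 over all probe sets. Without control replicate 3 the median was -0.06, against 0.00. The median of the list in this line thus had the other sign once the array that stood apart was left out.

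The difference between the responses of the lines passed at 13 of the 25 probe sets, all with the larger response in Cat100-6, where 8.76% of all probe sets passed in that direction and 5.92% in the other. With the arrays' medians subtracted these shares were 7.75% and 9.9%, and with the hybridization controls as the scale 11.4% and 0.982%. The count for the list was unstable when single arrays were left out. Over all 29 probe sets, the members included, 15 passed. Only between 3 and 5 did when any 1 of 10 of the 12 arrays was left out. The counts were 17 and 21 without Cat100-6 acid soil replicate 3 and S1587-17 control soil replicate 3. Without the latter array 7920 of all probe sets passed in either direction, beside 1544 higher and 1044 lower with all arrays. The floor of 3 holds rps6-2 and rps27, which were chosen with this contrast in view, so that these counts are descriptions. Of the 25, rpp2a-3 alone passed in all 12 of these fits (1.74 ± 0.31, adjusted p = 0.00780). The differences at the 13 stayed positive in these fits, between 0.82 at the lowest (rps6-1) and 2.00 at the highest (rpp2a-3).

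In control soil 17 of the 25 were lower in Cat100-6 than in S1587-17 and 0 were higher (limma; 18 lower and 0 higher at an unadjusted p under 0.05), where 23.2% of all probe sets were lower and 28.2% higher. The median was -1.08, against 0.08 over all probe sets. The largest differences were those of rpp2a-2 (-1.87 ± 0.27), RP-P0 at one probe set (-1.68 ± 0.22) and rpp2a-3 (-1.68 ± 0.22), and 3 of the 4 probe sets of rps6-1 were lower, by -0.62 to -1.53, while the other differed by -0.57 ± 0.22 and did not pass (adjusted p = 0.0513). RPS21, which had not passed for the soil response, was lower in Cat100-6 by -0.84 ± 0.26 (adjusted p = 0.0193). RPS10 (-0.06 ± 0.11), rpl29 (-0.07 ± 0.09) and rpp2b (0.29 ± 0.14) did not pass. In acid soil 0 of the 25 passed (limma; 2 lower at an unadjusted p under 0.05), with a median of -0.16, where 13.3% of all probe sets were higher and 10.6% lower in Cat100-6. On the scale of the hybridization controls those shares were 36% and 3%, and 2 of the 25 were higher and 0 lower. In control soil 15 were lower on that scale, beside 16.1% of all probe sets.

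**Figure D3:**
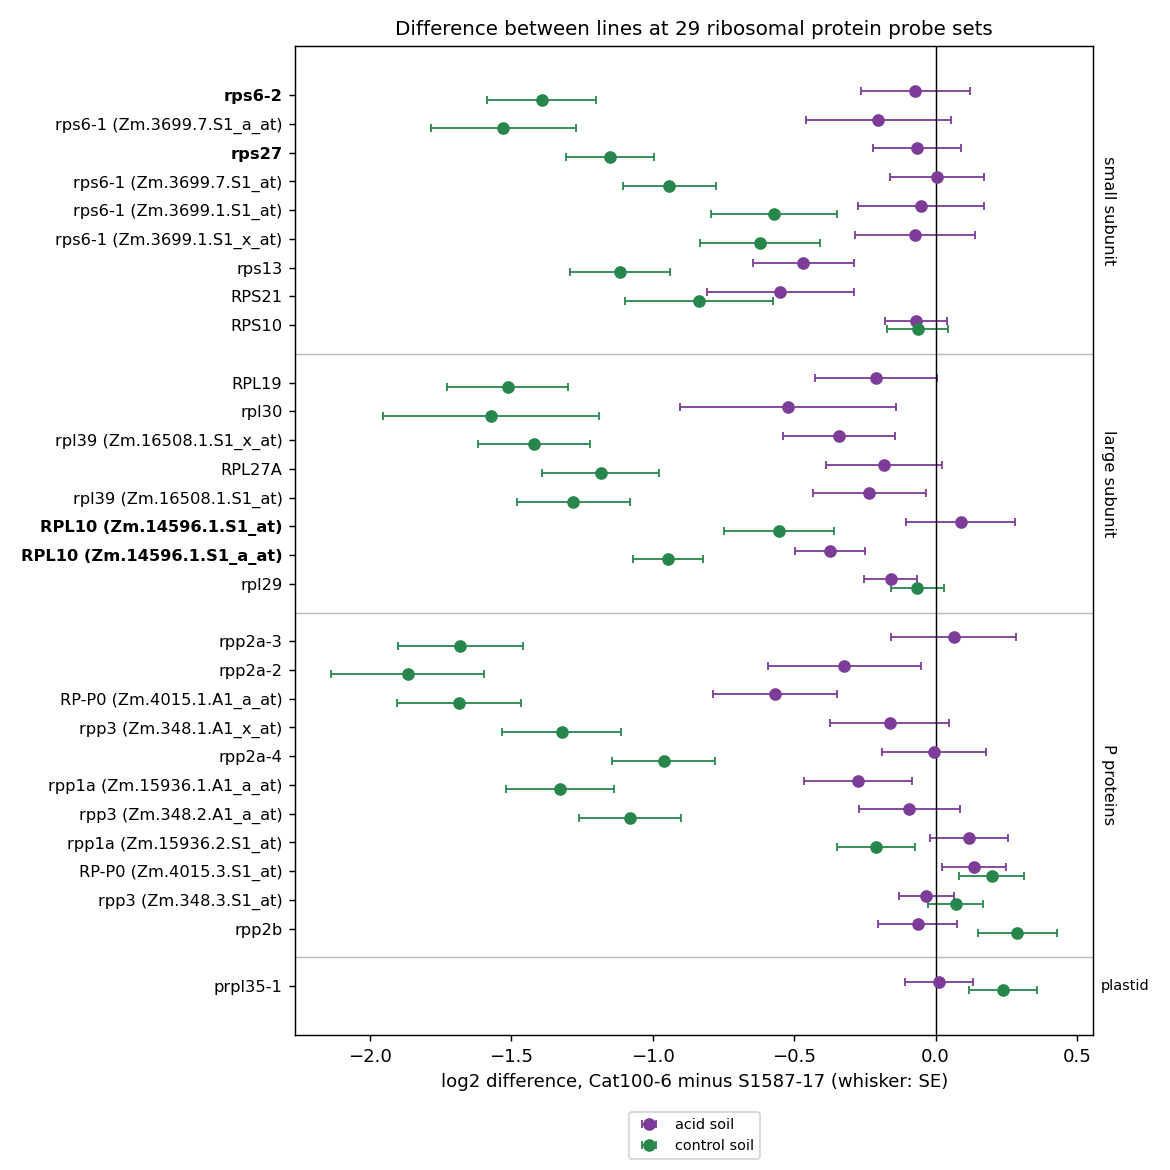
Difference between the lines (Cat100-6 minus S1587-17, log2, horizontal axis, whisker: SE) at the 29 ribosomal protein probe sets in acid soil (purple) and control soil (green), in the same order of roles, with the members in bold. Control soil values of the members lie between -0.55 and -1.39, and their acid soil values between -0.37 and 0.09.

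Genes that act together with the ribosome were counted in the same way. Of 15 probe sets of translation factors, 7 rose and 1 fell in Cat100-6 in acid soil, beside 23.5% and 31.5% of all probe sets. On the scale of the hybridization controls 11 rose and 0 fell, beside 37.4% and 5.96%. The RNA helicase gene tif-4A3 rose by 1.11 ± 0.14 and 0.95 ± 0.13 at its 2 probe sets (adjusted p = 0.000208 and 0.000278), and tif4A2 by 0.61 ± 0.10 (adjusted p = 0.000715). None of the 15 passed in S1587-17 in limma. For the difference of responses 5 passed with the larger one in Cat100-6 and 0 with the smaller, beside 8.76% and 5.92% of all probe sets. On the scale of the hybridization controls these were 4 and 0, beside 11.4% and 0.982%. In control soil 11 were lower and 2 higher in Cat100-6, beside 23.2% and 28.2% of all probe sets. On the scale of the hybridization controls 3 were lower and 2 higher, beside 16.1% and 22.8%. In acid soil 5 were lower and 0 higher, beside 10.6% and 13.3%. On the scale of the hybridization controls 1 was lower and 6 higher, beside 3% and 36% of all probe sets. Of the kinase pathway that acts on RPS6, 2 genes were measured and 1 fell. S6K, the S6 kinase gene, fell by 0.72 ± 0.13 in Cat100-6 in acid soil (adjusted p = 0.00112), while TOR differed by -0.43 ± 0.18 and did not pass (adjusted p = 0.0590). In S1587-17 they differed by 0.06 and 0.05, and in control soil both were higher in Cat100-6, S6K by 1.06 ± 0.13 and TOR by 0.84 ± 0.18. With the arrays set to the hybridization controls, neither passed in Cat100-6, where S6K differed by -0.22 ± 0.18 (adjusted p = 0.350) and TOR by 0.07 ± 0.18 (adjusted p = 0.770).

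Markers of leaf cell types moved with the soils of Cat100-6 too. Of 14 probe sets of dividing-cell genes (cyclins, pcna2, MCM7 and histones), 5 rose and 2 fell in Cat100-6 in acid soil, where 23.5% and 31.5% of all probe sets did. On the scale of the hybridization controls 8 rose and 0 fell, where 37.4% and 5.96% of all probe sets did. As deposited, their mean level lay between 7.47 and 7.97 in acid soil and between 6.54 and 6.58 in control soil. In S1587-17 that mean lay between 6.85 and 7.04 in acid soil and between 5.61 and 7.09 in control soil, and 0 passed. The median difference of the 14 was 0.24 in Cat100-6 and 0.21 in S1587-17, and -0.06 in S1587-17 without control replicate 3. In Cat100-6, 8 of 14 mesophyll probe sets fell and 1 rose, beside 31.5% and 23.5% of all probe sets. On the scale of the hybridization controls 0 fell and 2 rose, beside 5.96% and 37.4%. The deposited means were 11.23 to 11.65 in acid and 11.78 to 11.81 in control soil. In S1587-17 they averaged 11.79 to 11.91 in acid and 11.86 to 12.10 in control soil. The dividing-cell and mesophyll means do not compare the lines, since single probe sets weigh on them. In acid soil, Cat100-6 minus S1587-17 ranged from -3.77 to 8.52 over the dividing-cell probe sets (median -0.05). Over the mesophyll probe sets it ranged from -5.21 to 0.15 (median -0.03). Bundle sheath genes fell at 3 of 3 in Cat100-6, where 31.5% of all probe sets fell. On the scale of the hybridization controls 2 of 3 fell, beside 5.96% of all probe sets, and ssu1 differed by 0.10 ± 0.17 (limma, adjusted p = 0.651). Their deposited means in Cat100-6 were 11.29 to 12.57 in acid and 13.24 to 13.28 in control soil, and in S1587-17 11.80 to 12.04 in acid and 11.69 to 12.77 in control soil. No defining marker lay at 0, since RMA values have no zero. For the difference of responses 1 of the 14 dividing-cell probe sets was higher, beside 8.76% of all probe sets, and 0 were lower, beside 5.92%. Of the 14 mesophyll and 3 bundle sheath probe sets 0 passed. Without S1587-17 control replicate 3, 6 dividing-cell probe sets were higher, 1 mesophyll probe set was higher and 4 lower, and 3 bundle sheath probe sets were lower. The part of these cell types in the levels of the ribosomal protein genes was not tested.

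**Figure D4:**
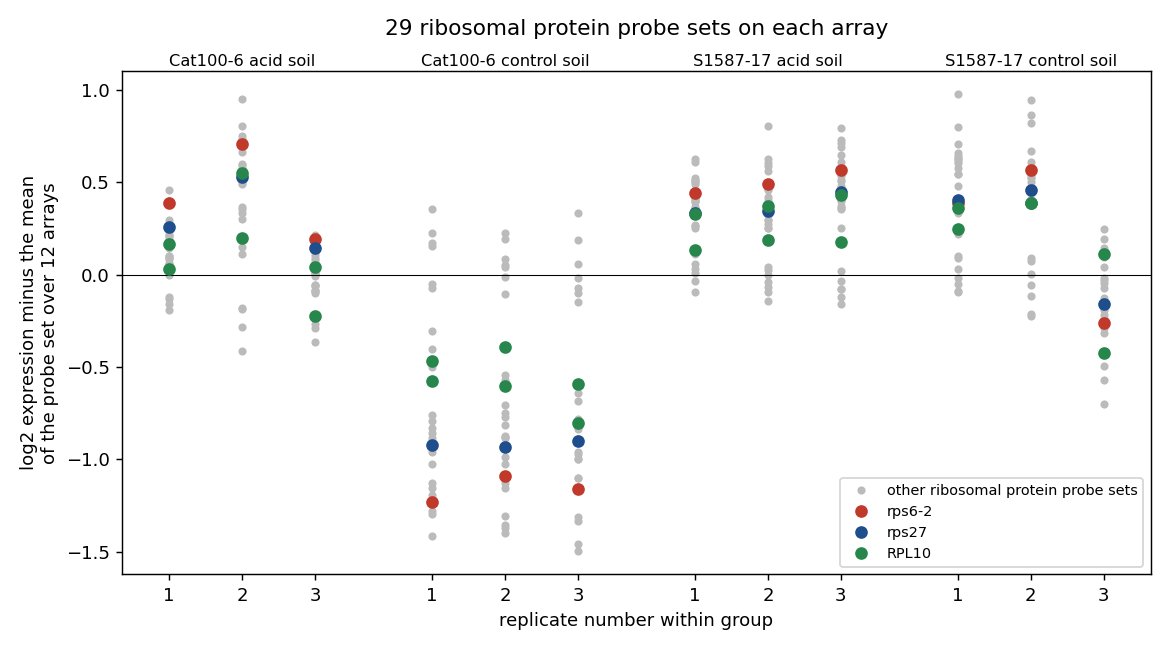
Level of the 29 ribosomal protein probe sets on each array, as the log2 value minus that probe set's mean over the 12 arrays (vertical axis), by group and replicate number. Coloured points are the members and grey points the other 25. On the Cat100-6 control arrays rps6-2 lies more than 1 log2 unit below its mean, and on S1587-17 control replicate 3 most points lie lower than on the other S1587-17 arrays.

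The profiles of the members over the 12 arrays were compared with those of 1329 probe sets of named genes for rps6-2 and rps27, and of 1328 for RPL10, after each was centred on its own mean. Likeness is given as the root mean square difference, in log2 units, over arrays that share line, soil and any array-wide effect. The profile most like that of rps6-2 was CNX (0.10, with its 3 probe sets among the closest 5 between 0.10 and 0.12), followed by rop7, a ROP small GTPase (0.10), and RPL19 (0.13), where the median probe set stood at 0.80. For rps27 they were cal2 (0.05), a gene with only a clone name (0.07), rpp3 at 1 of its probe sets (0.07), the auxin-binding protein gene abp1 (0.08) and the protein disulfide isomerase gene pdi6 (0.08), with a median of 0.66. For RPL10 at the _a_at probe set they were the enolase gene eno1 (0.09), rps13 (0.12), the mitochondrial porin gene vdac1a (0.13), ypt2 (0.13) and rpo2 (0.14), with a median of 0.53. Each member therefore had 1 ribosomal protein probe set among its 5 closest. Between the members, rps6-2 and rps27 differed by 0.16, rps27 and RPL10 by 0.23 and rps6-2 and RPL10 by 0.36, and the 2 probe sets of RPL10 differed from each other by 0.25.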

How the data were processed

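Leaf RNA of 12 samples was hybridized to 1 array each. The authors deposited 1 table of log2 expression values per probe set, made with RMA (background correction, quantile normalization and summary of probes) per the submitters' processing notes; the version is not given in the sources used here. RMA gives no detection calls, quantile normalization sets array-wide shifts to nearly 0, and the number of arrays limits the precision. From these values 4 group means were fitted to 17621 probe sets (113 controls left out) with limma 3.58.1 in R 4.3.3, and p-values were adjusted over all of them (Benjamini-Hochberg, threshold 0.05). The fit was tested on simulated data. The members and lists were chosen with earlier results of these data known. A test planned for the S1587-17 response of rps27 and RPL10 was dropped, since those arrays entered the choice. Members were matched by the platform's symbols and RefSeq symbols and synonyms. The planned match of lists by gene description was replaced by symbols, so genes with no symbol (16168 probe sets have none) are not in the lists, and no ribosome assembly factor was found. Genes named besides the members are those of the lists and the 5 probe sets with the most similar profile to each member. Alternatives covered scaling, dim probe sets, variance settings, array weights, replicate blocks and each array left out. Sequences were not used here.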

Additional observations from a re-analysis of the deposited data

Results flagged for a closer look

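The response to acid soil was larger in Cat100-6 than in S1587-17 by the interaction test (limma, adjusted p under 0.05) at 13 probe sets of ribosomal protein genes other than the members. The differences between the responses of the lines, Cat100-6 minus S1587-17, in log2 units, were 1.74 for rpp2a-3, 1.54 for rpp2a-2 and 0.96 for rpp2a-4 among the stalk proteins. The stalk genes rpp3 (1.16 and 0.99 at 2 probe sets), RP-P0 (1.12) and rpp1a (1.05) were also among them. Of the large subunit, RPL19 stood at 1.30, RPL27A at 1.00 and rpl39 at 1.05 and 1.08. Of the small subunit, rps6-1 stood at 1.33 and 0.95 at 2 of its 4 probe sets. Apart from rpp2a-3, each of these calls was lost when some single array was left out.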

How the results depend on the processing

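No pairing by replicate number was apparent: deviations of same-numbered arrays from their group means correlated between -0.29 and 0.19. Arrays of different number correlated between -0.42 and 0.33. With 3 arrays per group this cannot exclude pairing. With the number as a replicate block, 3 of the 29 ribosomal protein probe sets were lower in Cat100-6 in acid soil (1 without the block) and 1 was higher in control soil (0 without); with a replicate block within line, the difference of responses was called at 6 (15 without). Blocks moved no other count by over 1.5 times. The single call lower in the Cat100-6 response became 0 after a second quantile normalization, 0 on the scale of the hybridization controls, 0 with a minimum of 1 log2 unit and 2 with medians subtracted. Counts of calls in this section cover all 29 probe sets, the members included, and are descriptions. In acid soil the calls between lines were 0 higher and 1 lower. The latter was RPL10 at the _a_at probe set, which this contrast helped to choose, and 0 of the 25 others passed. These calls became 2 higher and 0 lower on the hybridization control scale, beside 36% and 3% of all probe sets. They became 4 lower with array weights and 0 lower with the minimum. Array weights gave 2 higher in control soil. On the hybridization control scale the Cat100-6 response was 2.09 for rps6-2, 1.73 for rps27, and 1.16 and 1.23 for RPL10, the difference of responses 1.72, 1.49, 0.97 and 1.04, and the line difference in acid soil 0.38, 0.39, 0.079 and 0.54, in that order. Array weights gave S1587-17 responses of -0.026 for rps27 and -0.10 for RPL10 at the _at probe set. Leaving out each array in turn gave 0 to 2 calls lower in the Cat100-6 response, 3 to 21 higher and 0 to 1 lower for the difference of responses, 0 to 4 lower between lines in acid soil, and 0 to 2 higher in control soil. The S1587-17 response then ranged from 0.02 to 0.44 for rps6-2, -0.053 to 0.25 for rps27 and -0.15 to 0.25 for RPL10 at the _at probe set. The line difference in acid soil ranged from -0.21 to 0.047 for rps6-2, -0.17 to 0.016 for rps27 and -0.061 to 0.19 for RPL10 at the _at probe set. The cause of these changes was not tested. The Cat100-6 response and the control soil line difference of all 4 member probe sets kept their direction under every alternative run.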
